A study of Mus musculus with 21 samples.

Results

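The non-clustered delta protocadherins were followed through motor neuron differentiation of mouse embryonic stem cells (mESCs). The 9 genes were taken by name, Pcdh1, Pcdh7, Pcdh8, Pcdh9, Pcdh10, Pcdh17, Pcdh18, Pcdh19 and Pcdh20, and each matched 1 of the 55400 genes measured. RNA-seq covered 21 libraries in 7 groups of 3 biological replicates, all from wild-type C57BL/6 mESCs grown on mitomycin-C-treated mouse embryonic fibroblast feeders. All 7 groups were differentiated as embryoid bodies with 1 µM retinoic acid and 0.5 µM of the Sonic hedgehog agonist SAG from day 2. DAPT (5 µM), a gamma-secretase inhibitor that blocks Notch signalling, joined them at day 4 to steer cells to the hypaxial motor column, and from day 5 the medium held DAPT without the other agents. The step from D4 to D4H8 is thus also the first 8 h of DAPT, and time and DAPT cannot be told apart in it. Likewise, the step from D5 to D6 is the first day without retinoic acid and SAG. Time and the loss of these agents cannot be told apart in that step. The 4 untreated groups were collected at day 4 (D4), 8 h later (D4H8), day 5 (D5) and day 6 (D6). The other 3 groups, D4H8+GSKJ4, D5+GSKJ4 and D6+GSKJ4, received GSKJ4 for the preceding day. For D4H8+GSKJ4 that day began before DAPT was added. For D5+GSKJ4 it ran in retinoic acid, SAG and DAPT, and for D6+GSKJ4 in DAPT without the other agents. Stage and medium during treatment thus cannot be told apart when GSKJ4 effects are compared between stages. GSKJ4 is a small molecule that inhibits the H3K27 demethylases, here used against Kdm6b. Its dose, and whether untreated cultures received vehicle, were not given in the sources used here. Because it acts on the enzyme, no targeted transcript could be used to check the labels.

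Protocadherins are single-pass cadherin family proteins that join like to like across cell contacts. The non-clustered delta members lie at separate loci and are sorted by their cytoplasmic tails into delta-1 (here Pcdh1, Pcdh7 and Pcdh9) and delta-2 proteins (here Pcdh8, Pcdh10, Pcdh17, Pcdh18 and Pcdh19), with Pcdh20 outside both. Several delta-2 members bind the WAVE complex, which drives branched actin assembly, and in developing nervous tissue the family is known for combinatorial expression, cell sorting and axon growth.

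Counts per library ran from 14982115 to 34383842 with a median of 16238435, and D4H8 replicate 1 was the deepest. Some treated libraries stood apart. In D5+GSKJ4 replicate 2, 39381 genes were at 0 counts, against 29339 to 32805 in the other 20. D4H8+GSKJ4 replicate 2 had the highest share of counts in its top 10 genes (7.28%), and its mean chi-square per gene against replicates 1 and 3 was 116.7 and 96.7, where all other pairs within a group had 6.94 to 65.1. Motor neuron markers were present in the D6 cultures, with a summed level of 8 genes of 443 to 512 FPKM (fragments scaled to exonic length and library size), against 7.71 to 19.6 FPKM at D4, and no marker specific to the hypaxial column was checked. Markers of other cells were also detected at D6. The sum of 14 feeder fibroblast and mesenchyme markers was 30.1 to 74.7 FPKM, and that of 6 pluripotency markers was uneven at 12.2 to 100 FPKM. The sum of 5 floor plate and p3 markers was 34.01 to 50.15 FPKM, against 15.15 to 19.34 FPKM at D4. Of these 5, Shh was at 19.4 ± 4.41 FPKM at D6 against 0.253 ± 0.155 at D4. Foxa2 was at 15.2 ± 2.86 FPKM at D6 against 14.8 ± 2.67 at D4. No marker of the motor neuron, feeder or pluripotency lists was at 0 in all 3 libraries of any group.

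Promoter sequence was read for 8 members, to show what their start regions share beside the different time courses described later. The 250 bases before the RefSeq start (GRCm38.p6) were used, and for Pcdh9, which has 2 listed starts, those of the upstream one. Pcdh1 is not shown and was left out of the member counts that follow, which therefore do not cover the whole family. The letters ATTGG, the core of a CCAAT box on either strand, were present in 7 of the 8 windows, all but Pcdh7, and in 33.8% of the 32851 promoter windows of the same length. This motif was chosen after the sequences had been read. In the lines that follow, with 12 bases on each side and written on the strand of the gene, capitals mark ATTGG or its complement CCAAT.
Pcdh18, chr3:49757332-49757360, minus strand: ggaagctcgctgATTGGctggaagcgatt
Pcdh17, chr14:84443493-84443521, plus strand: ctccccacgccgATTGGctggcagagaat
Pcdh8, chr14:79771364-79771392, minus strand: ggctaagcgaccATTGGctggccccttcc
Pcdh19, chrX:133689042-133689070, minus strand: ggctgcgcgctgATTGGctagtgcctggc
Pcdh10, chr3:45378336-45378364, plus strand: tgctcctcggcgATTGGttggcagaatga
Pcdh9, chr14:93890745-93890773, minus strand: gcaagatgctggCCAATcaggacccggag
Pcdh20, chr14:88471565-88471593, minus strand: gctttgccatcaCCAATagcgaaaattaa
The motif began 32, 58 and 68 bases before the start of Pcdh18, Pcdh17 and Pcdh8. Pcdh17 holds a second ATTGG, 101 bases before its start. The motif began 65, 50 and 82 bases before the start in Pcdh19, Pcdh10 and Pcdh9, and 185 bases before it in Pcdh20. The windows of Pcdh18 and Pcdh19 were 68.0% and 69.2% G+C, above 87.8% and 89.6% of all windows, while Pcdh20 was 42.4% G+C. The proneural E-box CAGCTG was in none of the 8 windows and in 13.0% of all windows, and the RBPJ site TGGGAA, searched on both strands, was in that of Pcdh10 and in 21.6% of all windows. These matches describe letters and are not evidence of binding. Against a median of 6 CpG over all windows, Pcdh18 held 23, and Pcdh10, Pcdh17, Pcdh9 and Pcdh19 held 22, 21, 18 and 16. Pcdh8, Pcdh7 and Pcdh20 held 11, 7 and 3. The full window of Pcdh18 is shown as an example of the CpG-rich windows.
Pcdh18, chr3:49757317-49757566, minus strand: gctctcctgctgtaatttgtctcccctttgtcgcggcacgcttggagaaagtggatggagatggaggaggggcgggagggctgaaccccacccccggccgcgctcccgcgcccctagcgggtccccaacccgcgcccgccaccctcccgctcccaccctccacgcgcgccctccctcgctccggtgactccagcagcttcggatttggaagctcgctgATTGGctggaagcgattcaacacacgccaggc

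At D4 the family was mostly Pcdh18 and Pcdh1. Levels are compared between genes per exonic length, in FPKM, as mean ± SD over 3 libraries. Pcdh18 stood at 2.73 ± 0.44 and Pcdh1 at 2.54 ± 0.08 FPKM, and their libraries overlapped. Pcdh19 (0.39 ± 0.03) and Pcdh8 (0.37 ± 0.21) followed and overlapped each other. Pcdh20, at 0.12 ± 0.03 FPKM, did not overlap either neighbour, and Pcdh7, Pcdh9, Pcdh17 and Pcdh10 had means between 0.02 and 0.04 FPKM with no order that held between libraries.

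The order at D6 was different. Pcdh8 (8.94 ± 1.55 FPKM), Pcdh7 (8.68 ± 1.36) and Pcdh1 (6.63 ± 1.10) led, with overlap between neighbours. Pcdh9 (4.19 ± 0.45), Pcdh10 (3.06 ± 0.65) and Pcdh18 (1.92 ± 0.48) came next, each separate from its neighbours in all libraries. Pcdh19, Pcdh17 and Pcdh20 stayed under 1 FPKM in every library of the series. Between these points, Pcdh18 led at D4H8 with 5.71 ± 0.40 FPKM, above Pcdh1 in every library, and at D5 Pcdh1 (3.83 ± 0.61) and Pcdh18 (2.84 ± 0.86) overlapped, as did Pcdh18 and Pcdh8 (1.99 ± 0.18).

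**Figure D1:**
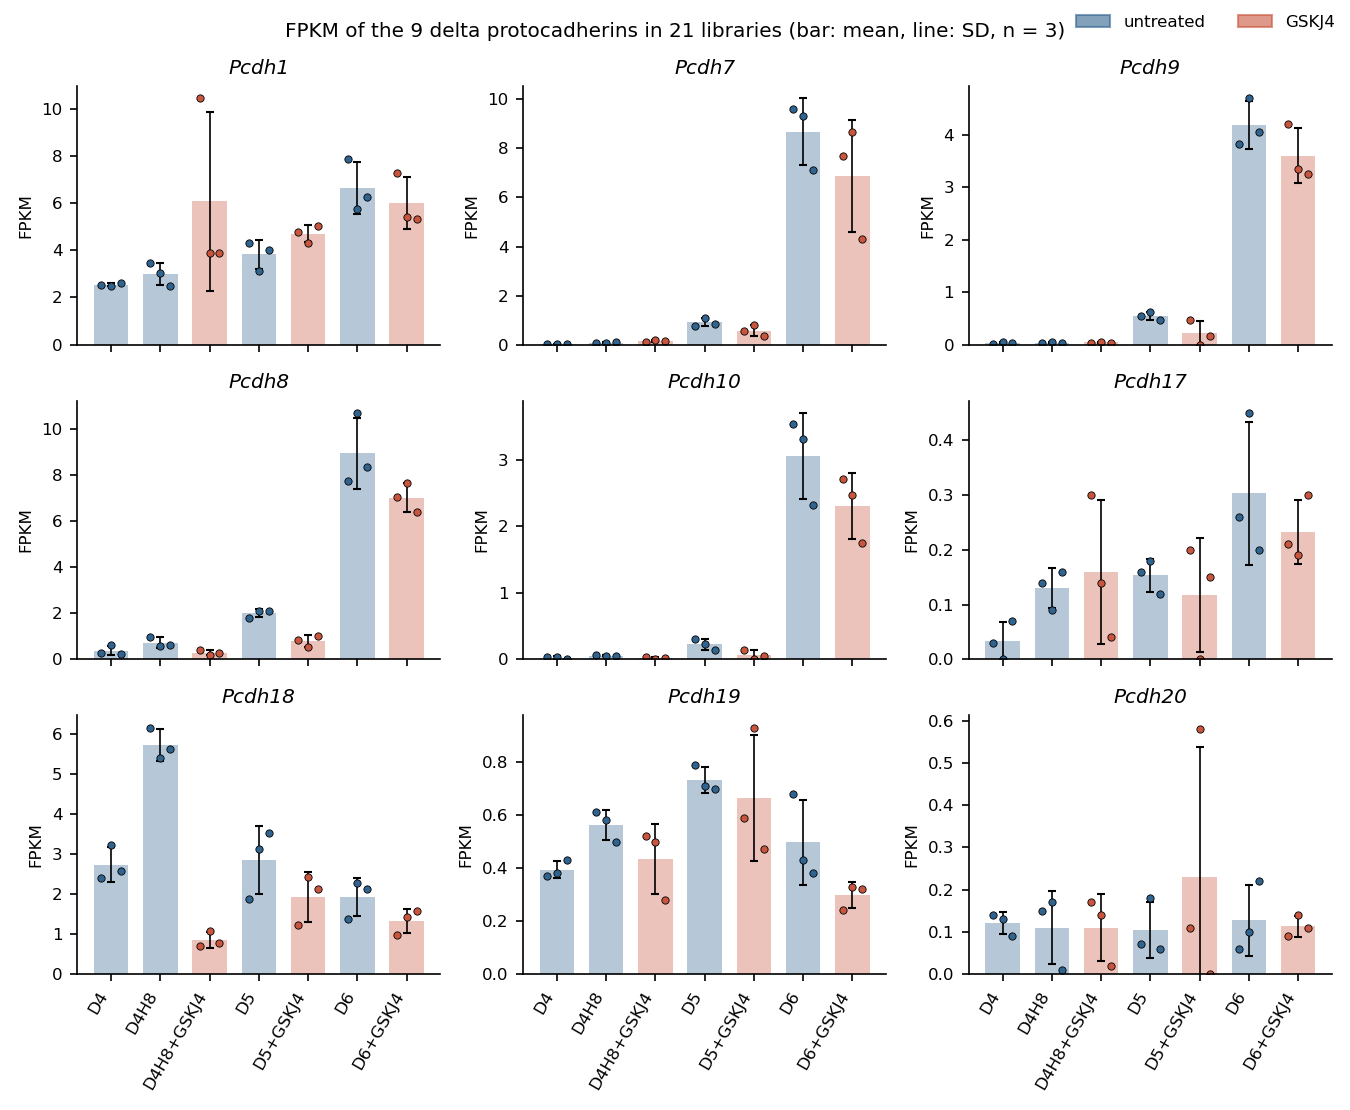
FPKM of each member (y axis, scale set per gene) in the 7 groups (x axis). Points are libraries, bars group means and lines the SD over 3 libraries, drawn only above 0. Pcdh7, Pcdh8, Pcdh9 and Pcdh10 have their high libraries at D6, and Pcdh18 is highest in the 3 untreated D4H8 libraries (5.38 to 6.15 FPKM), while the 3 treated D4H8 libraries (0.70 to 1.06) lie below all untreated ones and overlap only the lowest D6+GSKJ4 library (0.98).

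Summed over the 9 members, the level was 6.28 ± 0.58 FPKM at D4, 10.4 ± 1.09 at D4H8, 11.3 ± 0.67 at D5 and 34.3 ± 3.06 at D6. Pcdh18 held 43.2% of the sum at D4, 55.1% at D4H8, 24.8% at D5 and 5.64% at D6. Pcdh1 held 40.7% at D4 and 19.4% at D6 while its own level was higher at D6. Pcdh7 and Pcdh8 together with Pcdh9 and Pcdh10 made up most of the remainder at D6, with 25.2%, 26.0%, 12.2% and 8.84%.

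**Figure D2:**
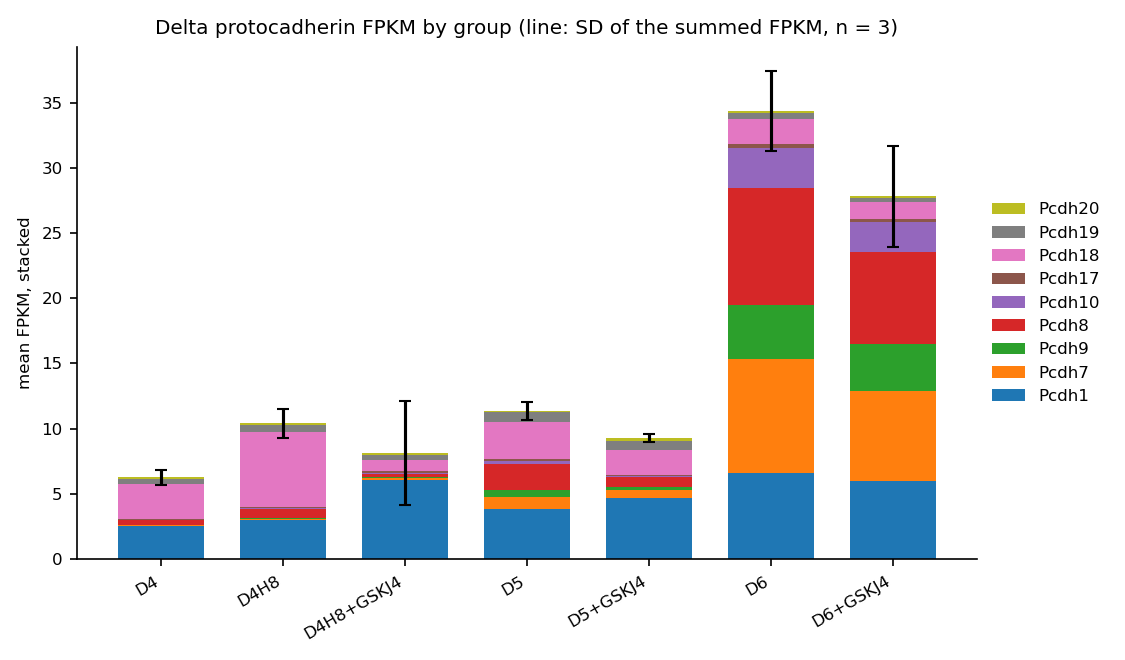
Mean FPKM of the 9 members stacked by group (y axis), with the SD of the summed FPKM over 3 libraries as a line. The D6 sum of 34.3 FPKM is shared by 5 large bands, whereas the D4 sum of 6.28 FPKM is mostly Pcdh18 and Pcdh1.

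The untreated stages address when each member changes during differentiation. Counts of the 12 untreated libraries were fitted together, and differences were tested by the quasi-likelihood test of edgeR with Benjamini-Hochberg adjustment over 17519 genes, and a member was called at an adjusted p under 0.05. All 9 members passed the filter on low counts in this fit. A change in these bulk cultures can come from the number of cells of a type or from RNA per cell, and these cannot be told apart. Cell type markers moved at the same time: from D4 to D6 all 8 motor neuron and all 9 pan-neuronal markers rose, and 7 of 9 progenitor markers fell while 2 rose. In the same contrast 4 of 5 floor plate and p3, 3 of 6 interneuron, 4 of 13 feeder and mesenchyme, 3 of 4 neural crest and glia and 2 of 4 endothelium and blood markers rose, while 3 of 7 paraxial mesoderm, 1 of 6 pluripotency and 1 of 4 neural crest and glia markers fell. Of all tested genes, 32.9% rose and 31.0% fell in this contrast, and the feeder and mesenchyme count is near that share. The part of these markers in the members' changes was not tested.

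Pcdh7, a delta-1 member reported to bind the phosphatase PP1 and the protein Set, had the largest change of the 9 from D4 to D6. The gene lies at chr5:57717967-58133230 on the plus strand (GRCm38, 10604 exonic bases). Its level was 0.04, 0.04 and 0.03 FPKM in the 3 D4 libraries and 0.07, 0.06 and 0.11 at D4H8. It was 0.78, 1.10 and 0.85 at D5 and 9.61, 9.31 and 7.12 at D6. No library of one stage overlapped with the next. The D4H8 step had a log2 fold change of 0.94 ± 0.35 (SE; adjusted p = 0.18), Pcdh7 then rose by 3.54 ± 0.24 from D4H8 to D5 (adjusted p = 3.2e-07, 11.6-fold) and by 3.37 ± 0.20 from D5 to D6 (adjusted p = 2.7e-07, 10.4-fold), all by edgeR. Over the whole span the fold was 230, from 6 to 10 counts per library at D4. Pcdh7 shares 2235 exonic bases with 4932441J04Rik on the other strand, which had at most 65 counts in any library. The counting strand is not given in the sources used here.

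Pcdh9, the other delta-1 member that was low at the start, is a long gene at chr14:93013410-93890679 on the minus strand (6783 exonic bases). The 3 D4 libraries held 3, 6 and 3 counts and the 3 D4H8 libraries 7, 6 and 3, which is 0.02 to 0.05 FPKM. D5 libraries had 0.55, 0.63 and 0.47 FPKM and D6 libraries 3.83, 4.70 and 4.05 FPKM. The groups overlapped at the first step and were apart at both later ones. Pcdh9 rose by 3.87 ± 0.31 on the log2 scale from D4H8 to D5 (edgeR adjusted p = 9.3e-07, 14.6-fold) and by 3.04 ± 0.23 from D5 to D6 (adjusted p = 1.2e-06, 8.21-fold).

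Pcdh1, the delta-1 member known from epithelia, was present throughout and changed late. It lies on chromosome 18 and has 8797 exonic bases. Its level was 2.52, 2.48 and 2.63 FPKM at D4, 3.44, 3.05 and 2.50 at D4H8, 4.32, 3.14 and 4.03 at D5, and 7.87, 5.76 and 6.25 at D6. Only the D6 libraries were clear of the stage before. The first 2 steps had log2 fold changes of 0.19 ± 0.18 and 0.35 ± 0.18 (edgeR adjusted p = 0.64 and 0.17). Pcdh1 rose by 0.91 ± 0.18 from D5 to D6 (adjusted p = 0.0018, 1.88-fold).

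Pcdh8, a delta-2 member also called arcadlin, takes part in the removal of N-cadherin from synapses. It is a single block of 4538 exonic bases at chr14:79766775-79771312 on the minus strand. It stood at 0.28, 0.61 and 0.23 FPKM at D4, 0.99, 0.57 and 0.60 at D4H8, 1.79, 2.09 and 2.10 at D5, and 7.76, 10.70 and 8.36 at D6. D4 and D4H8 overlapped through D4 replicate 2, and the later stages were apart. The first step had a log2 fold change of 0.95 ± 0.32 (edgeR adjusted p = 0.14). Without D4 replicate 2 this step was 1.44 ± 0.31 (adjusted p = 0.027), and DESeq2 gave an adjusted p of 0.04 with all libraries. Pcdh8 rose by 1.42 ± 0.30 from D4H8 to D5 (adjusted p = 0.0026) and by 2.28 ± 0.29 from D5 to D6 (adjusted p = 5.5e-05), and D6 was 25.1-fold above D4. It shares 436 exonic bases with Gm9748 on the other strand, which had at most 14 counts in any library.

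Pcdh10, a delta-2 member that recruits the WAVE complex and supports axon growth, had a lower mean level than Pcdh8 at every stage. It lies at chr3:45378398-45435623 on the plus strand and has 15888 exonic bases, of which 154 are shared with 1700027H10Rik on the other strand (at most 2 counts in any library). Its level was 0.04, 0.03 and 0 FPKM at D4, the last from 1 count, and 0.06, 0.05 and 0.05 at D4H8. It was 0.31, 0.23 and 0.14 at D5 and 3.54, 3.31 and 2.32 at D6. All 3 steps separated the libraries, but the first, at 0.96 ± 0.52, was not called by edgeR (adjusted p = 0.38). Pcdh10 rose by 2.07 ± 0.41 from D4H8 to D5 (adjusted p = 0.0018) and by 3.85 ± 0.36 from D5 to D6 (adjusted p = 5.6e-06, 14.4-fold), the largest last step of the 9 members.

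Pcdh17, a delta-2 member also tied to the WAVE complex and axon extension, was called by edgeR over the whole span and at no single step, while DESeq2 called the step from D4 to D4H8 (adjusted p = 0.018, higher). It lies at chr14:84443563-84539002 on the plus strand (12991 exonic bases). The D4 libraries had 0.03, 0 and 0.07 FPKM, D4H8 0.14, 0.09 and 0.16, D5 0.16, 0.18 and 0.12, and D6 0.26, 0.45 and 0.20. The D4H8 libraries lay above D4 and the D6 libraries above D5, while D4H8 and D5 overlapped. D6 against D4 gave a log2 fold change of 3.25 ± 0.64 (edgeR adjusted p = 0.0005), with 41 to 94 counts per library at D6 and 0 to 14 at D4.

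Pcdh18, a delta-2 member whose tail binds Dab1, was the 1 member that rose at one step and fell at another. It lies at chr3:49743296-49757325 on the minus strand, with 5366 exonic bases, on the same chromosome as Pcdh10. Its level was 2.39, 3.22 and 2.57 FPKM at D4 and 6.15, 5.38 and 5.61 at D4H8. It was 1.88, 3.13 and 3.52 at D5 and 1.38, 2.27 and 2.12 at D6. The D4H8 libraries lay above all D4 and all D5 libraries. Pcdh18 rose by 1.02 ± 0.22 on the log2 scale from D4 to D4H8 (edgeR adjusted p = 0.015, 2.03-fold) and fell by 1.01 ± 0.22 from D4H8 to D5 (adjusted p = 0.0035). The rise was not called without D4 replicate 1 (1.01, adjusted p = 0.064) or without D4H8 replicate 1 (0.94, adjusted p = 0.086). D6 and D4 differed by -0.44 ± 0.22 (adjusted p = 0.098), with all 3 D6 libraries below all D4 ones. From D5 to D6 the log2 fold change was -0.45 ± 0.22 (adjusted p = 0.13), and without D5 replicate 1 it was -0.66 (adjusted p = 0.022).

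Pcdh19, a delta-2 member that works with N-cadherin and whose loss causes epilepsy, passed the test at no step. It lies at chrX:133582860-133688987 on the minus strand (10464 exonic bases). Its level was 0.37, 0.38 and 0.43 FPKM at D4, 0.61, 0.58 and 0.50 at D4H8, 0.79, 0.71 and 0.70 at D5, and 0.68, 0.43 and 0.38 at D6. The libraries were apart at each of the 3 steps, higher, higher and lower. The log2 fold changes were 0.48 ± 0.25, 0.38 ± 0.25 and -0.43 ± 0.25 (edgeR adjusted p = 0.36, 0.29 and 0.20), and the last was -0.77 without D6 replicate 1 (adjusted p = 0.027). Pcdh20, at chr14:88464743-88471396 on the minus strand (5492 exonic bases), ranged from 0.01 to 0.22 FPKM over the untreated libraries, from 1 to 29 counts, overlapped between all stages and was called nowhere.

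**Figure D3:**
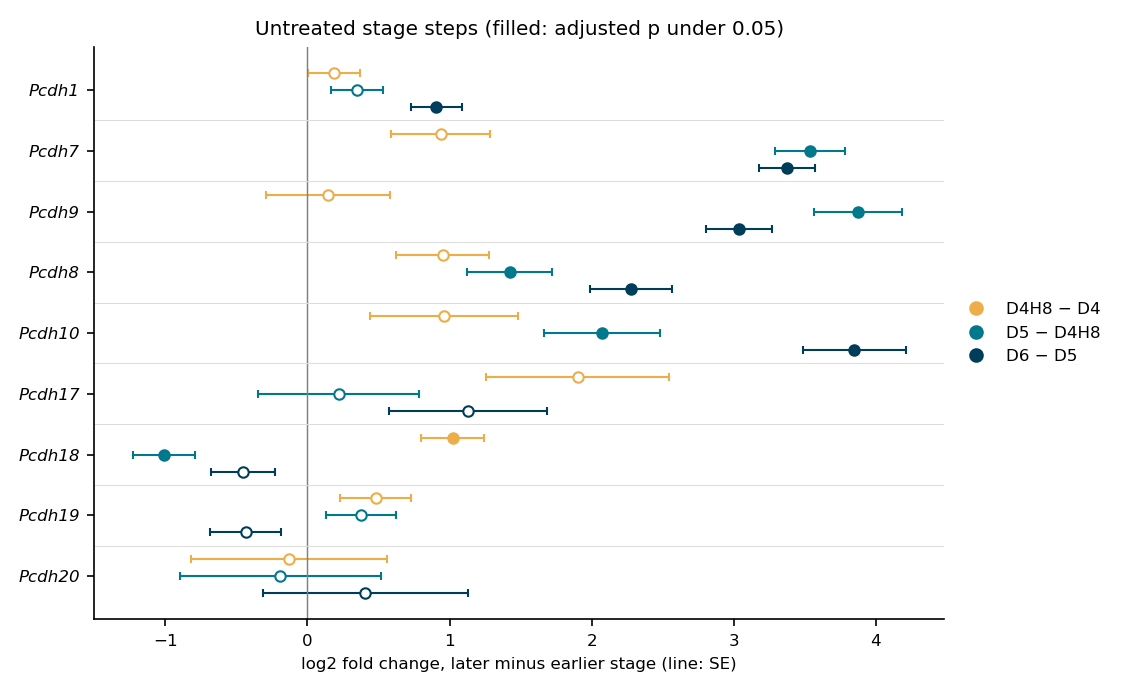
Log2 fold change of each member at the 3 untreated steps (x axis, later minus earlier stage), with the SE as a line. Filled points passed an adjusted p under 0.05. Pcdh7, Pcdh9, Pcdh8 and Pcdh10 have filled points at both later steps, and Pcdh18 has filled points on either side of 0.

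Read across members, 1 of 9 was called higher from D4 to D4H8 and 0 lower, where 4.06% of all tested genes were higher and 0.32% lower. At D4H8 to D5 the counts were 4 higher and 1 lower, against 17.2% and 10.5% of all genes, and at D5 to D6 they were 5 higher and 0 lower, against 19.2% and 15.1%. From D4 to D6, 6 of 9 were higher and 0 lower, against 32.9% and 31.0%. The members' median log2 fold change was 0.94, 0.38, 1.13 and 3.25 over these 4 contrasts, beside -0.02, 0.01, -0.02 and -0.04 over all tested genes. By subfamily, all 3 delta-1 and 3 of 5 delta-2 members rose from D4 to D6. Counted by libraries that did not overlap, 5 of 9 lay higher and 0 lower from D4 to D4H8, against 15.9% and 8.67% of all genes. The same count was 5 higher and 1 lower at D5 against 24.2% and 19.0%, and 6 higher and 1 lower at D6 against 21.6% and 26.9%. From D4 to D6 it was 6 higher and 1 lower against 33.5% and 35.8%.

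The GSKJ4 groups address which members change when the demethylases are inhibited. At D4H8, 8 members were tested, since Pcdh9 was under the count filter, with 16269 genes in the fit. The clearest difference was in Pcdh18, which stood at 0.70, 1.06 and 0.78 FPKM in the 3 treated libraries against 6.15, 5.38 and 5.61 in the untreated ones. The treated libraries held 63, 97 and 66 counts and lay below all 12 untreated libraries of the series. Pcdh18 fell by 2.78 ± 0.27 on the log2 scale (edgeR adjusted p = 0.0027), to 0.146 of the untreated level, and it was called in all 14 alternative fits, with an adjusted p of at most 0.036. Without D4H8+GSKJ4 replicate 2 it was -3.04 ± 0.19 (adjusted p = 0.0022), in a fit with 1746 called genes where that on all 6 libraries had 644. It was the 1 member called lower, with 0 called higher, against 1.85% and 2.11% of all genes.

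The other members at D4H8 did not pass the test in this fit. Pcdh8 had 0.41, 0.18 and 0.29 FPKM with GSKJ4 against 0.99, 0.57 and 0.60, with no overlap and a log2 fold change of -1.36 ± 0.43 (edgeR adjusted p = 0.092, and 0.042 by DESeq2). Pcdh10 had 0.03, 0.01 and 0.02 against 0.06, 0.05 and 0.05 FPKM (-1.36 ± 0.56, adjusted p = 0.17). Both delta-1 members that were tested lay the other way. Pcdh1 had 10.44, 3.90 and 3.87 FPKM with GSKJ4 against 3.44, 3.05 and 2.50, a log2 fold change of 0.96 ± 0.37 (adjusted p = 0.14) that was 0.35 without treated replicate 1. Pcdh7 had 0.12, 0.18 and 0.13 against 0.07, 0.06 and 0.11 FPKM (0.80 ± 0.46, adjusted p = 0.31). Pcdh19 differed by -0.41 ± 0.34 (adjusted p = 0.48) with overlapping libraries. Of the 8 members tested, 3 lay lower and 2 higher with no overlap, against 14.3% and 18.5% of all genes. The members' median log2 fold change was -0.24, and that of all tested genes 0.02.

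Some marker lists held called genes in the same contrast as Pcdh18, and others held none. The sum of 9 motor neuron progenitor markers was 46.7 to 104 FPKM with GSKJ4 and 283 to 386 without at D4H8, and 6 of the 9 were called lower. The 8 motor neuron markers summed to 12.6 to 28.9 against 57.9 to 62.7 FPKM, with 3 of 7 tested called lower. The 14 feeder and mesenchyme markers summed to 69.4 to 90.7 against 34.3 to 56.1 FPKM, with 0 of 11 tested called, and no marker of these 3 lists was at 0 in all libraries of either group. The 10 matched paraxial mesoderm markers, a tissue in which Pcdh8 is a known marker, summed to 13.8 to 22.8 against 9.12 to 15.7 FPKM with 0 of 6 called, and Msgn1 was at 0 in all 6 libraries. The 9 pan-neuronal markers summed to 93.9 to 280 against 223 to 426 FPKM, with 0 of 9 called. Of the tested pluripotency (6), floor plate and p3 (4), interneuron (4), neural crest and glia (3) and endothelium and blood markers (4), 0 were called. The part of these lists in the result was not tested.

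At D5, 8 members were tested and none was called, in a contrast where 0.00613% of 16309 genes were. At an unadjusted p under 0.05, 1 member was lower by edgeR, Pcdh8, beside 377 higher and 390 lower of all 16309 genes. By DESeq2 there were 2 lower, Pcdh8 and Pcdh10, beside 610 higher and 510 lower of 30271 genes. DESeq2 called 0 members after adjustment. Pcdh8 was at 0.83, 0.52 and 1.03 FPKM with GSKJ4 against 1.79, 2.09 and 2.10 without. These libraries did not overlap, as in 5.13% of all genes in this direction. Its log2 fold change was -1.37 ± 0.36 (edgeR adjusted p = 0.72). Treated replicate 2, the library with the most genes at 0, had 0 counts of Pcdh9, Pcdh10 and Pcdh17, which allows up to 3 counts each, and 50 counts of Pcdh20. In the other 2 treated libraries Pcdh9 was at 0.48 and 0.16 FPKM and Pcdh10 at 0.14 and 0.05, against 0.47 to 0.63 and 0.14 to 0.31 untreated. The log2 fold changes were -1.38 ± 1.06 and -1.80 ± 1.06 (adjusted p = 0.98 for both) with overlapping libraries. Pcdh18, at 1.22, 2.43 and 2.11 FPKM against 1.88, 3.13 and 3.52, differed by -0.62 ± 0.32 (adjusted p = 0.98). Pcdh7 differed by -0.70 ± 0.36, Pcdh19 by -0.19 ± 0.34 and Pcdh1 by 0.25 ± 0.19 (adjusted p = 0.98 for each). Without the number 2 libraries of both D5 groups, a choice made after seeing the data, again none was called and Pcdh8 differed by -1.09 ± 0.35, Pcdh9 by -0.69 ± 0.58 and Pcdh10 by -1.22 ± 0.62.

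At D6, all 8 tested members had a negative log2 fold change, from -0.77 to -0.15, and none was called without pairing, where 0.0% of 16301 genes were. The members' median was -0.37, and that of all tested genes 0.004. Pcdh1 was at 0.03 without D6 replicate 1. At an unadjusted p under 0.05, 2 members were lower by edgeR, Pcdh8 and Pcdh19, beside 88 higher and 134 lower of all 16301 genes. By DESeq2 there were also 2 lower, Pcdh18 and Pcdh19, beside 79 higher and 141 lower of 30650 genes. DESeq2 called 0 members after adjustment. Same-numbered treated and untreated D6 libraries deviated together from their group means (correlations 0.715, 0.374 and 0.51), so the fit with the replicate number as a block is given beside it. In the blocked fit 3 members were lower and 0 higher, against 1.28% and 0.294% of all genes. Pcdh10 had 2.71, 2.47 and 1.75 FPKM with GSKJ4 against 3.54, 3.31 and 2.32, lower in each of the 3 pairs, and fell by 0.41 ± 0.07 on the log2 scale in the blocked fit (edgeR adjusted p = 0.0014). Pcdh7 had 7.68, 8.66 and 4.32 against 9.61, 9.31 and 7.12 FPKM and fell by 0.38 ± 0.08 (blocked adjusted p = 0.015). Pcdh8 had 7.03, 7.66 and 6.38 against 7.76, 10.70 and 8.36 FPKM and fell by 0.35 ± 0.08 (blocked adjusted p = 0.023).

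Pcdh18 at D6 was at 0.98, 1.43 and 1.56 FPKM with GSKJ4 against 1.38, 2.27 and 2.12, a log2 fold change of -0.55 ± 0.25 without and -0.54 ± 0.14 with the block (edgeR adjusted p = 1 and 0.072). Pcdh19 was at 0.24, 0.33 and 0.32 against 0.68, 0.43 and 0.38 FPKM, with no overlap and -0.77 ± 0.31 (adjusted p = 1). Pcdh8 and Pcdh19 were the 2 members lower with no overlap at D6, against 2.48% of all genes. Pcdh9 and Pcdh1 differed by -0.22 ± 0.16 and -0.15 ± 0.20 (adjusted p = 1 for both). The summed FPKM of the 9 members was 27.8 ± 3.90 with GSKJ4 against 34.3 ± 3.06.

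**Figure D4:**
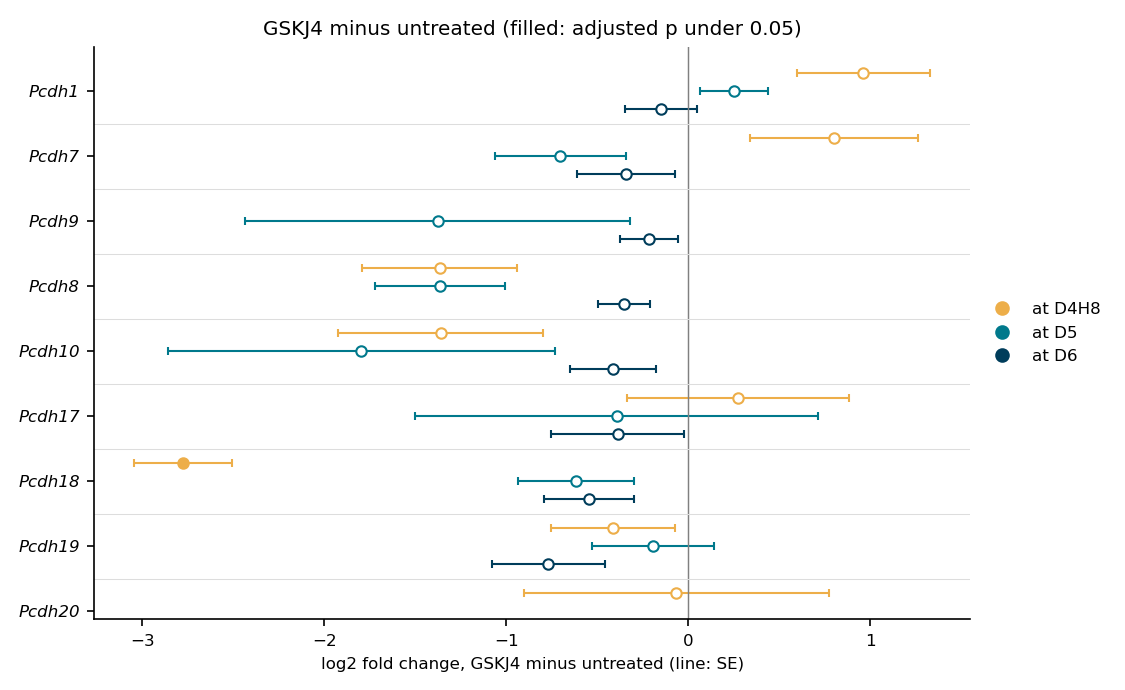
Log2 fold change of each tested member with GSKJ4 (x axis, treated minus untreated) at D4H8, D5 and D6, with the SE as a line, from the fits without a replicate block. The 1 filled point, Pcdh18 at D4H8 (-2.78), passed an adjusted p under 0.05. Pcdh9 at D4H8 and Pcdh20 at D5 and D6 were under the count filter.

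Whether the GSKJ4 difference changed with stage was tested on 18 libraries and 18103 genes. For Pcdh18 the log2 fold change with GSKJ4 was less negative at D5 than at D4H8, by 2.15 ± 0.41 (edgeR adjusted p = 0.026). At D6 it was less negative than at D4H8 by 2.24 ± 0.41 (adjusted p = 0.013). D6 and D5 differed by 0.09 ± 0.41 (adjusted p = 1). Pcdh18 was the 1 member called in each of the first 2 contrasts, in which 0.232% and 0.552% of genes were called in this direction and 0.0166% and 0.182% in the other, and the third called 0.0% of genes in either direction. Leaving out 1 library gave 1.95 to 2.42 for the first contrast, with adjusted p up to 0.12 and the call lost in 9 of 12 fits, namely those without any 1 of the 3 D4H8 or the 3 D5 libraries, without D4H8+GSKJ4 replicate 3, or without D5+GSKJ4 replicate 2 or 3. It gave 2.08 to 2.52 for the second, with adjusted p up to 0.06 (without D4H8 replicate 1). The D4H8 libraries enter both contrasts, and stage and the medium during GSKJ4 cannot be told apart in them.

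Over the 21 libraries, Pcdh7, Pcdh8, Pcdh9 and Pcdh10 varied together, with pairwise Pearson r of log2 CPM (counts scaled to library size) between 0.88 and 0.96. Pcdh18 had r of -0.30, -0.04, -0.25 and -0.15 with them and -0.63 with Pcdh1. These values describe libraries that share stages and have no p. Among 12978 named genes with at least 1 FPKM in a group, Pcdh18 was most like Hey2, a transcriptional repressor downstream of Notch (r = 0.92), and Ackr3, a chemokine receptor (r = 0.88). Hey2 was at 2.14, 1.82 and 1.41 FPKM at D4H8 and 0.17, 0.18 and 0.12 with GSKJ4, and Ackr3 at 20.01, 15.62 and 17.60 against 3.68, 3.09 and 3.36. These D4H8 libraries are among the 21 over which both genes were chosen.

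For the other members, Pcdh9 was closest to Lrrc4c, a netrin-G1 ligand (r = 0.98), and Cyp4x1 (0.98). Pcdh10 was closest to Nrsn2 (0.97) and Ntng1, which encodes netrin-G1 (0.97). Pcdh7 was closest to Pik3r1, a regulatory subunit of phosphoinositide kinase (0.99), and the adaptor Sh3kbp1 (0.99), and Pcdh8 to Rnf150 (0.97) and the homeobox gene Irx1 (0.97). Pcdh1 was closest to Fam83h (0.94) and the repressor Cic (0.94), and Fam83h was also uneven in treated D4H8 libraries (7.53 ± 4.28 FPKM). Over the 12 untreated libraries these r were 0.92 to 0.99 except for Ackr3, at 0.81.

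Of the 22 clustered beta protocadherins, which are expressed in varied combinations by single neurons, 21 were tested and all 21 rose from D4 to D6, with a median log2 fold change of 4.91 and the largest in Pcdhb10 (0.03 ± 0.03 to 7.77 ± 1.59 FPKM). By step, 17 of 21 were called higher by edgeR at D4H8, 20 at D5 and 11 at D6. At D4H8 with GSKJ4, 1 of 18 tested was lower, Pcdhb3, from 1.49 ± 0.29 to 0.48 ± 0.12 FPKM (-1.66 ± 0.36, adjusted p = 0.039). These genes resemble each other in sequence, so each single value is uncertain. How reads that match several of them were counted is not given in the sources used here. Of 13 tested non-clustered relatives, 9 rose and 2 fell from D4 to D6, where the shares over all genes were 32.9% and 31.0%. Pcdh15, a cadherin of hair cell tip links, was listed at 0 at D4 and at 0.18 ± 0.02 FPKM at D6, and Cdhr1, a photoreceptor cadherin, fell by 1.83 ± 0.36 from D5 to D6 (edgeR adjusted p = 0.0017). Pcdh11x, the remaining delta-1 gene, had the largest D6 step, from 0.05 ± 0.01 to 0.97 ± 0.35 FPKM (4.29 ± 0.36, adjusted p = 2.2e-06). Celsr3, an atypical cadherin of axon guidance, had the largest D5 step (2.24 ± 0.25, adjusted p = 1.6e-05), and Celsr1, its relative in planar cell polarity, was lowest over the whole span (-1.70 ± 0.19, adjusted p = 2.6e-06). Fat1, a giant cadherin, was higher with GSKJ4 at D4H8 (20.3 ± 1.8 to 41.4 ± 7.7 FPKM, adjusted p = 0.037).

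Among the known binding partners, in the WAVE complex, 3 of 10 tested genes rose and 3 fell from D4 to D6, close to the 32.9% and 31.0% of all genes, with a median log2 fold change of 0.04. Cyfip2, a subunit of the complex, rose from 5.65 ± 1.6 to 57.0 ± 12 FPKM (3.42 ± 0.20, edgeR adjusted p = 5.3e-09), and Nckap1l, the subunit of blood cells, fell by 2.61 ± 0.34 on the log2 scale (adjusted p = 1.4e-05). With GSKJ4 at D4H8 the 1 called gene of the complex was Nckap1l, higher by 1.73 ± 0.28 (adjusted p = 0.020). Of 13 other partners, 6 rose and 5 fell from D4 to D6, beside the same shares of all genes. Dab1, the adaptor bound by Pcdh18 and downstream of reelin, rose by 4.03 ± 0.20 (adjusted p = 1.1e-09), while Set, bound by Pcdh7, fell by 1.54 ± 0.16 (adjusted p = 1.5e-06). Cdh11, a classical cadherin, rose by 2.35 ± 0.21 from D5 to D6 (adjusted p = 3.3e-06) and was the 1 partner called with GSKJ4 at D4H8, where it fell by 1.41 ± 0.33 (adjusted p = 0.05, under the threshold before rounding).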

How the data were processed

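Poly-A RNA-seq was analysed for 21 libraries, 7 groups of 3 labelled biological replicates. The authors trimmed reads with Fastp, aligned them to mm10 with HISAT2 and SAMtools and deposited HTSeq gene counts. The deposited FPKM were made by the authors from these counts and gene lengths, and recomputed values differed by at most 0.005. The counting strand is not given in the sources used here. Counts per library were 14982115 to 34383842, and 0 counts allow up to 3 (counting error only). No libraries were identical. The study describes its replicates as independent experiments.

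Gene names came from GENCODE (55140 of 55400 IDs matched a symbol), and promoters from RefSeq. Counts were fitted by the quasi-likelihood test of edgeR 4.0.16 (limma 3.58.1, R 4.3.3) with TMM scaling, filterByExpr (minimum count 10) and Benjamini-Hochberg adjustment over all tested genes, with the 12 untreated libraries in 1 fit, the 6 libraries of each stage for GSKJ4, and 18 libraries for differences between stages. Calls had an adjusted p under 0.05. The code was tested on simulated data. DESeq2 1.42.0, RLE and upper-quartile scaling, other filters, 1 fit over all 21 libraries, a replicate block and leaving out each library were alternatives. Groups were called not overlapping when all CPM values were apart. All members were named, with genes that had the largest or smallest change of their relative or partner list in a contrast (not every such gene is printed) and the 2 genes most correlated with each member over log2 CPM (prior count 2, at least 1 FPKM in a group), left out for members under 1 FPKM. The members and lists were chosen with earlier results of these data known. The pairing check correlated the deviations of same-numbered libraries from their group means: all 3 pairs exceeded 0.1 for GSKJ4 at D6 (0.715, 0.374 and 0.51), for D5 against D4H8 (0.317, 0.144 and 0.18) and for D6 against D5 (0.328, 0.173 and 0.248), and the numbers are the labels' own.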

Additional observations from a re-analysis of the deposited data

Results flagged for a closer look

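The difference in Pcdh18 between GSKJ4-treated and untreated cultures was not the same at each stage by the test of that difference itself. Its log2 fold change with GSKJ4 was -2.78 at D4H8, -0.62 at D5 and -0.55 at D6, so the fall was smaller at the later stages. The change was less negative than at D4H8 by 2.15 at D5 and by 2.24 at D6 (edgeR's quasi-likelihood test on 18 libraries, Benjamini-Hochberg adjusted p = 0.026 and 0.013). Both values share the 6 D4H8 libraries, and the medium during GSKJ4 differed between the stages as well. The first call was lost in 9 of 12 fits that left out 1 library and the second without D4H8 replicate 1 (adjusted p = 0.06). The D6 and D5 differences differed by 0.09 (adjusted p = 1). Treated and untreated libraries did not overlap at D4H8, and they did at D5 and D6.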

How the results depend on the processing

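The tally of single values leaves out Pcdh20, Pcdh17 except from D4 to D6, and Pcdh9 from D4 to D4H8. For differences between stages it holds Pcdh18 alone. Values left out moved too. Pcdh17 from D4 to D4H8 gained a call by DESeq2 (adjusted p = 0.018). With GSKJ4 at D4H8 it ranged from -0.47 to 0.73 when 1 library was left out. Of the values counted, 343 of the comparisons with another tool, scaling, filter, set of libraries or block kept direction and call and 12 gained a call. Among the same values, leaving out 1 library kept 303, ended 12 calls, added 3 and reversed 6. From D4 to D4H8, 3 members were higher by DESeq2 and 3 without a filter against 1, and 0 to 2 when 1 library was left out. Requiring 10 counts in every library left the low members untested, with 1 higher at D5 against 4, 2 at D6 against 5, and 2 from D4 to D6 against 6. Upper-quartile scaling gave 1 lower member from D4 to D6 (Pcdh18, -0.59) against 0 and moved the median of all genes to -0.19. From D5 to D6, 0 to 1 were lower when 1 library was left out. For GSKJ4 at D4H8, 2 members were lower by DESeq2, in 1 fit over 21 libraries and with the block, against 1, and 1 (Pcdh1) was higher without a filter, in 1 fit over 21 libraries and with the block, against 0. For the difference of GSKJ4 effects, 1 member was lower without a filter for D5 and 1 for D6 against D4H8, where each main count was 0, and 0 to 1 were higher when 1 library was left out, in either. Leaving out 1 library gave -0.49 to 0.0095 for Pcdh19 with GSKJ4 at D5, -0.34 to 0.032 for Pcdh1 at D6 and -0.12 to 0.30 for Pcdh18 between D6 and D5. The summed FPKM of D5+GSKJ4 was 8.87 after TMM rescaling against 9.28. The cause of these shifts was not tested beyond the filter's own construction.

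With the replicate block, 3 members were lower with GSKJ4 at D6 against 0. Same-numbered treated and untreated libraries correlated at 0.453, 0.0658 and 0.256 at D4H8 and at 0.254, 0.0507 and 0.225 at D5. Whether a number marks a shared culture is not given in the sources used here. The block gave 2274 called genes at D4H8 against 644 and 4 at D5 against 1. At D4H8 the block also called Pcdh1 higher (edgeR adjusted p = 0.034) and Pcdh8 lower (adjusted p = 0.031), beside Pcdh18. The block changed no member's call over the untreated stages or between stages. Over all genes and alternatives, calls ranged from 350 to 1319 for D4 to D4H8 (767 in the reported fit), 43 to 2287 for GSKJ4 at D4H8, 1 to 128 at D5 and 0 to 257 at D6, 16 to 351 (45) for the D5 and 40 to 626 (133) for the D6 difference from D4H8, and 0 to 13 (0) for D6 against D5. Depth limits Pcdh7, Pcdh9, Pcdh10, Pcdh17 and Pcdh20, with 0 to 18 counts per library at D4.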
